A study of Homo sapiens with 6 samples.

Results

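The insulin and IGF signalling genes described here are 9 of the 22481 genes in the deposited count table, listed by name. The rule uses no measured value, although the list was drawn up with earlier results of these data known. They are INSR and IGF1R, the receptors, IRS1 and IRS2, the docking substrates, PDPK1, AKT1 and AKT2, the kinases, and FOXO1 and FOXO3, the transcription factors. RNA was sequenced from 143B cells, an established human osteosarcoma line derived from HOS cells by transformation with Ki-ras. The celastrol group was 3 wells to which celastrol, a triterpene from the thunder god vine, was added for 24 h, and the control group was the other 3 wells of the same plate, grown on for the same 24 h. Both groups had first been grown for 24 h, and neither the dose nor any vehicle in the control wells is given in the labels. All 6 libraries thus come from 1 line and 1 plate, so the error behind each p-value is that between wells of a plate, and it may be technical.

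Insulin and the insulin-like growth factors bind the receptor tyrosine kinases INSR and IGF1R, which phosphorylate IRS1 and IRS2, and these recruit PI3-kinase. The lipid made by PI3-kinase brings AKT to the membrane, where PDPK1 phosphorylates it, and active AKT phosphorylates FOXO factors and keeps them out of the nucleus. FOXO factors in the nucleus raise the transcription of genes for cell cycle arrest, stress defence and catabolism, and in several cell types also of INSR and IRS2. These steps run through phosphorylation and location of proteins, which RNA levels do not show.

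Each library held 38.41 to 39.45 M counts, and the groups overlapped in depth (two-sided exact permutation p = 0.4, n = 3 wells each). Of the celastrol wells replicate 2, and of the control wells replicate 1, was closest to the opposite group on the first principal component. Of the bone and mesenchyme markers, VIM, SPARC, SPP1, TWIST1 and RUNX2 were present, from 2.99 FPKM upwards (fragment counts per gene length and library total), while COL1A1 was at 1.18 to 2.52 FPKM, ALPL at 0.344 to 1.24 FPKM, and SP7, BGLAP and COL1A2 at or near 0. The summed bone and mesenchyme markers, 10 of the 11 listed being in the table, were 1325 to 1359 FPKM with celastrol and 1649 to 1765 FPKM in controls. The 5 epithelial markers summed to 770 to 822 FPKM with celastrol and 808 to 827 FPKM in controls, nearly all of it KRT8 and KRT18, with EPCAM at 3.65 to 4.69 FPKM and KRT19 and CDH1 at or near 0. The blood cell sum was 0.148 to 0.391 FPKM with celastrol and 0.0309 to 0.162 FPKM in controls, over only 2 of the 5 listed markers, nearly all of it CD14, with PTPRC at most 0.0235 FPKM. The 4 endothelial markers summed to 0.0678 to 0.110 FPKM with celastrol and 0.203 to 0.278 FPKM in controls. The part of these marker differences in the results was not tested. In these bulk samples fewer cells expressing a gene and less RNA of it per cell cannot be told apart.

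Both IRS genes, both FOXO genes and IGF1R fell with celastrol, whereas the 3 kinases PDPK1, AKT1 and AKT2 rose. INSR was the member that did not pass the test. The falls of IRS1, IRS2 and FOXO1 were the largest, each to below 0.6 of the control level, and the rise of PDPK1, at 1.39-fold, was the largest rise. All 9 genes passed the filter on low counts, and 8 were called at an adjusted p under 0.05 by edgeR's quasi-likelihood test, 3 higher and 5 lower. Among all 15387 genes tested 48.4% were called, 23.6% higher and 24.8% lower. Among the better covered genes, with a log2 CPM (counts scaled by library total) of 4 or more, as all 9 have, 57.0% were called, 30.2% higher and 26.8% lower. The wells of the groups did not overlap in 8 of the 9 genes and in 56.9% of all genes, so changes of this kind were common across the table. The median log2 fold change was -0.23 over the 9 genes and 0.00 over all genes (-0.0002369), and the median size of the change was 0.36 and 0.33.

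**Figure D1:**
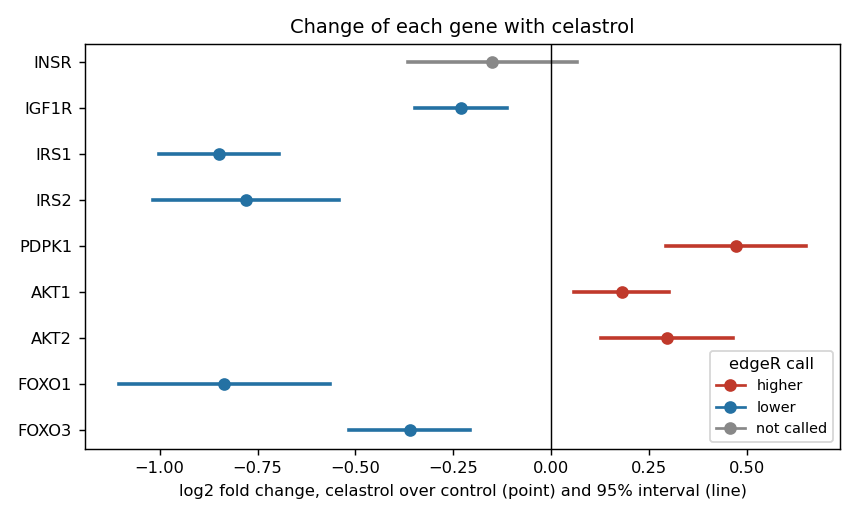
Log2 fold change of each of the 9 genes, celastrol over control, on the horizontal axis, with points for the estimates of edgeR and lines for their 95% intervals. The intervals of the 3 kinases lie above 0, those of IGF1R, IRS1, IRS2, FOXO1 and FOXO3 lie below 0, and that of INSR spans 0.

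Of the 9 genes, 3 were called and at least 1.5-fold lower (IRS1, IRS2 and FOXO1), against 12.3% of all genes. The count of members called and at least 1.5-fold higher was 0 by edgeR, DESeq2 and limma-voom alike, and also 0 at an unadjusted p under 0.05 by edgeR, against 8.64% of all genes called and that much higher by edgeR. No p threshold could change the edgeR count, since the largest rise, that of PDPK1, was 1.39-fold. Tested with edgeR's glmTreat for a change beyond a 25% rise, or the same fold down, the calls of IRS1, IRS2 and FOXO1 held, and those of IGF1R, FOXO3, AKT2, AKT1 and PDPK1 (adjusted p = 0.0569) did not. A rise beyond 25% is therefore not established for any of the kinases.

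Since promoters are the sequences from which these RNAs start, the 250 bases upstream of the RefSeq start (GRCh38.p14) are shown for the 3 genes that fell most and for PDPK1, which rose most. They are read 5′ to 3′ on the gene's strand. Capitals mark GC boxes (GGGCGG, or CCGCCC where the box lies on the other strand) and, in IRS2, the core of the insulin response element (CAAAACA), which lies on the other strand and so reads TGTTTTG. The IRS1 promoter is chr2:226799821-226800070 on the minus strand, and that of IRS2 is chr13:109786584-109786833 on the minus strand. The FOXO1 promoter is chr13:40666642-40666891 on the minus strand, and that of PDPK1 is chr16:2537771-2538020 on the plus strand.
IRS1: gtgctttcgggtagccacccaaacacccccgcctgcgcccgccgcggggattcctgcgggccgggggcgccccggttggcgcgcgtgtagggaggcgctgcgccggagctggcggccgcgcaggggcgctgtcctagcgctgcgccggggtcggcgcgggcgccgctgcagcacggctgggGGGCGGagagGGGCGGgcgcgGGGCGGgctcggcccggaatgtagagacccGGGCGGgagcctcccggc
IRS2: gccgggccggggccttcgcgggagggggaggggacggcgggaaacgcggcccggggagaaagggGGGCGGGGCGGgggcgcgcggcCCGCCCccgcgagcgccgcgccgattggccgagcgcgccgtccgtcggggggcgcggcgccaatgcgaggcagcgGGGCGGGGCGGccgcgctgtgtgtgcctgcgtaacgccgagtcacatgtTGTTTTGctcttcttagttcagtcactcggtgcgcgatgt
FOXO1: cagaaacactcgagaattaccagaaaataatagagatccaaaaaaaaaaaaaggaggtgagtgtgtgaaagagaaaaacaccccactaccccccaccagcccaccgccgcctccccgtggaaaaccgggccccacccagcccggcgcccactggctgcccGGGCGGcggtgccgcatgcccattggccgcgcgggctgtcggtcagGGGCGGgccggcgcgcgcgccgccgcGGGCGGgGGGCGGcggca
PDPK1: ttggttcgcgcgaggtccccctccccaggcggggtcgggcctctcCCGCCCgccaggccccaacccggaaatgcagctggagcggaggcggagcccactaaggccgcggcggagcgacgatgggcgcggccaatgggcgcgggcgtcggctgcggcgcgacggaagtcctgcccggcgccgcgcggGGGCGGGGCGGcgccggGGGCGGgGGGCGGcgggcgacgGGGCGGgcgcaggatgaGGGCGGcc
The 4 windows had GC contents of 80.8% for IRS1, 76.4% for IRS2, 67.2% for FOXO1 and 81.6% for PDPK1, against a median of 58.0% over 34943 RefSeq promoter windows of the same length.

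The RefSeq table held 14 promoter windows for the 9 genes, and every motif was searched on both strands, with overlapping matches counted. GC boxes were found in 13 of the 14 windows, at least 1 for each gene, against 42.5% of all windows, with 4 in IRS1, 5 in IRS2, 4 in FOXO1 and 7 in PDPK1, so that rising and falling genes both carried them. The CAAAACA core was found in 1 of the 14 windows, that of IRS2, where it begins 40 bases before the start, and in 4.31% of all windows. The forkhead core TAAACA, a motif of FOXO binding sites, was found in 1 of the 14 windows, the second of the 4 FOXO3 promoters, and in 11% of all windows. The E-box CACGTG was in 0 of the 14 windows and in 6.32% of all windows. These counts describe the letters of these windows only.

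The receptors come first in the pathway. IGF1R, the receptor for IGF1 and IGF2 (NCBI gene 3480, chromosome 15, 98648539 to 98964530, plus strand, GRCh38.p14), had 230, 221 and 219 CPM, scaled by TMM, in celastrol wells, against 260, 262 and 264 CPM in control wells. Every celastrol well lay below every control well, although the groups differed by little. The means were 223.4 ± 5.77 CPM with celastrol and 262.0 ± 2.00 CPM in controls (SD, n = 3 each), a log2 fold change of -0.23 ± 0.06 (SE, edgeR adjusted p = 0.00242).

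INSR, the insulin receptor (NCBI gene 3643, chromosome 19, 7112265 to 7294414, minus strand), had 26.3, 26.0 and 21.9 CPM in celastrol wells, against 26.6, 26.1 and 29.8 CPM in control wells. One well of each group stood away from 4 that lay close together, and the groups overlapped. The log2 fold change was -0.15 ± 0.10 (SE), with a 95% interval of -0.37 to 0.07 and an edgeR adjusted p of 0.239, so that neither no change nor a fall of the size seen in IGF1R was outside the interval. The difference between the changes of the 2 receptors was tested as their ratio within wells, with the other pairs.

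**Figure D2:**
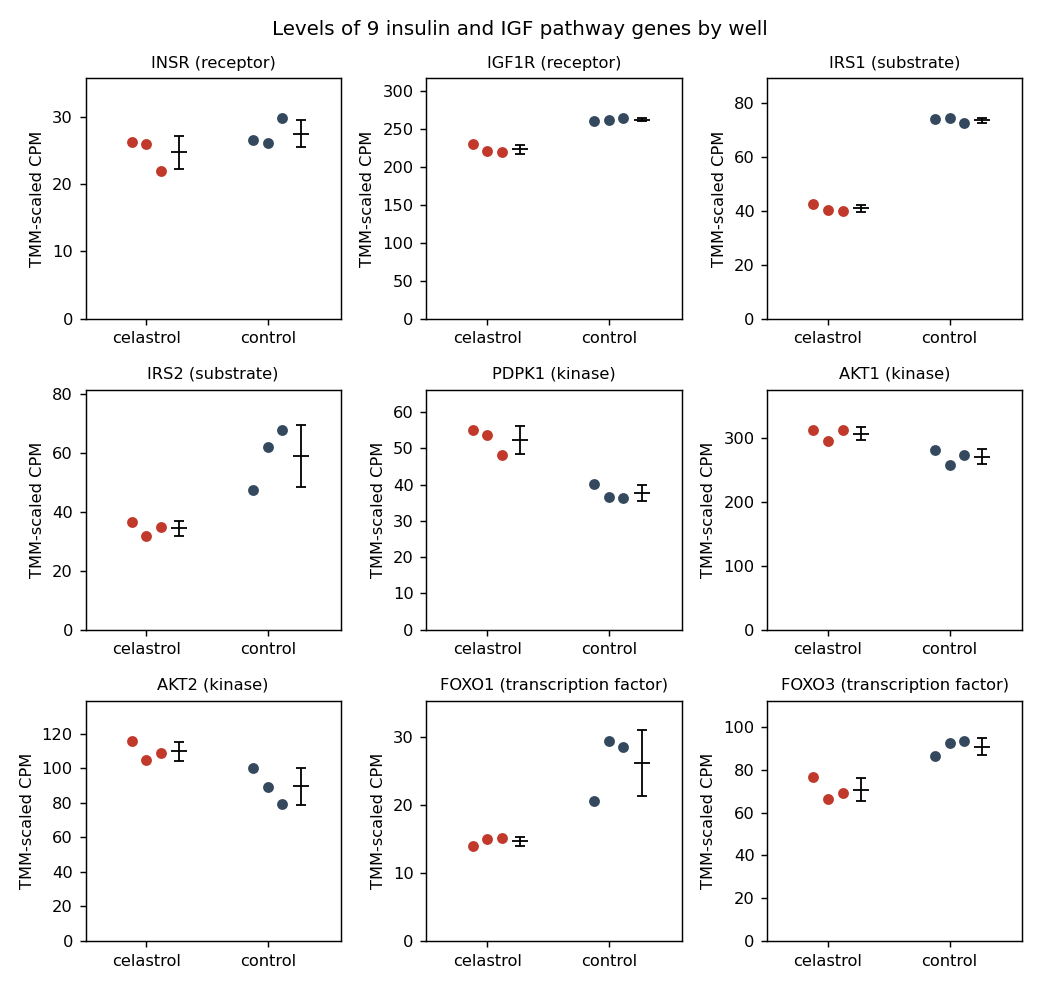
Level of each of the 9 genes in TMM-scaled CPM (vertical axes, each starting at 0), with 1 point per well, celastrol left of control, and mean and SD beside the points. The groups overlap in INSR, and in the other 8 genes the celastrol wells lie all above or all below the control wells.

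Around the receptors stand the ligands, which activate them, and the IGF binding proteins, which hold IGFs in the medium. Of 12 such genes listed, 9 were tested, of which 7 fell, 1 rose and 1 was not called. Among all genes tested 24.8% fell and 23.6% rose. The median log2 fold change was -0.48 in the list, against 0.00 over all genes. The 7 that fell were IGF2 and IGFBP2 to IGFBP7, with log2 fold changes from -0.38 for IGF2 to -1.81 for IGFBP5. IGFBP5 averaged 4.28 ± 1.42 CPM with celastrol and 15.1 ± 1.84 CPM in controls (SD, n = 3 each, edgeR adjusted p = 1.63e-06). IGFBP3, the main IGF carrier of the blood, averaged 10.1 ± 1.2 CPM with celastrol and 16.1 ± 0.937 CPM in controls (log2 fold change -0.67 ± 0.13 SE, edgeR adjusted p = 0.00040). IGF2R, which clears IGF2 and does not signal through AKT, had a log2 fold change of 0.14 ± 0.06 (SE, edgeR adjusted p = 0.038), and this call was lost when celastrol replicate 1, 2 or 3 or control replicate 2 or 3 was left out, at adjusted p-values of 0.0592 to 0.189. IGFBP1 was not called (log2 fold change 0.29 ± 0.54 SE, edgeR adjusted p = 0.683, 9 to 27 counts per library). IGF1 had 1 count in all 6 libraries together and was below the filter, and INS and IGFALS were not analysed here.

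IRS1 and IRS2 are the docking proteins that the activated receptors phosphorylate. IRS1 (NCBI gene 3667, chromosome 2, 226731312 to 226799820, minus strand) had 42.4, 40.5 and 39.8 CPM in celastrol wells, against 73.9, 74.3 and 72.6 CPM in control wells. Both groups were tight, and the gap between them was many times the spread within either. The means were 40.9 ± 1.37 CPM with celastrol and 73.6 ± 0.888 CPM in controls (SD, n = 3 each), a log2 fold change of -0.85 ± 0.07 (SE, edgeR adjusted p = 6.2e-08), or 0.556-fold.

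IRS2 (NCBI gene 8660, chromosome 13, 109752695 to 109786583, minus strand) had 36.5, 31.6 and 34.9 CPM in celastrol wells, against 47.3, 61.7 and 67.8 CPM in control wells. The celastrol wells were close together, while the control wells were spread widely, with control replicate 1 the lowest of them but still above every celastrol well. The means were 34.3 ± 2.48 CPM with celastrol and 58.9 ± 10.5 CPM in controls (SD, n = 3 each), a log2 fold change of -0.78 ± 0.11 (SE, edgeR adjusted p = 3.03e-05). Without control replicate 1 it was -0.92. Of the promoters printed above for these substrates, that of IRS2 holds the insulin response element core and that of IRS1 does not.

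Other adaptors and scaffolds that act beside the IRS proteins showed changes both ways. Of 20 listed genes 19 were tested, of which 8 rose, 7 fell and 4 were not called. Among all genes tested 23.6% rose and 24.8% fell. The median log2 fold change of the list was -0.03. SOS2, an exchange factor for RAS, averaged 38.2 ± 1.63 CPM with celastrol and 27.3 ± 2.26 CPM in controls (SD, n = 3 each, log2 fold change 0.48 ± 0.09 SE, edgeR adjusted p = 0.000306). SHC2, an adaptor that links receptors to RAS, had a log2 fold change of 0.57 ± 0.19 (SE, edgeR adjusted p = 0.0201), which was not called without celastrol replicate 1 (0.45, adjusted p = 0.115) or control replicate 2 (0.38, adjusted p = 0.116). GAB2, a docking protein like the IRS proteins, averaged 22.7 ± 2.64 CPM with celastrol and 54.1 ± 13.5 CPM in controls (SD, n = 3 each, log2 fold change -1.26 ± 0.17 SE, edgeR adjusted p = 0.000269). CBLB, a ubiquitin ligase, had a log2 fold change of -0.85 ± 0.13 (SE, edgeR adjusted p = 2.40e-05). IRS4 was not analysed here.

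PI3-kinase is recruited by the IRS proteins. Of 12 listed subunit genes 9 were tested, of which 2 rose, 4 fell and 3 were not called. Among all genes tested 23.6% rose and 24.8% fell. The median log2 fold change of the list was -0.12. PIK3CD, the catalytic subunit p110 delta, averaged 22.5 ± 2.54 CPM with celastrol and 109.7 ± 12.6 CPM in controls (SD, n = 3 each), a change well beyond that of any of the 9 genes (log2 fold change -2.28 ± 0.10 SE, edgeR adjusted p = 1.01e-10). PIK3R1, the regulatory subunit p85 alpha that binds IRS proteins, averaged 32.3 ± 1.23 CPM with celastrol and 25.3 ± 0.818 CPM in controls (SD, n = 3 each, log2 fold change 0.35 ± 0.09 SE, edgeR adjusted p = 0.0036). The class II subunits PIK3C2A and PIK3C2B had log2 fold changes of 0.23 ± 0.07 and -0.32 ± 0.12 (SE, edgeR adjusted p = 0.0178 and 0.0394). PIK3C2A was not called when any of celastrol replicates 2 and 3 and control replicate 3 was left out (adjusted p = 0.0575 to 0.0636). PIK3C2B was not called when any of celastrol replicates 1 and 3 and control replicates 2 and 3 was left out (adjusted p = 0.064 to 0.228), nor with scaling by library size alone (adjusted p = 0.0722). Nor was PIK3C2B called by limma on log2(FPKM + 1) (adjusted p = 0.1341) or on log2(FPKM + 0.1) (adjusted p = 0.1385). PIK3R5 and PIK3R6 were below the filter, and PIK3C2G was not analysed here.

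PDPK1, the kinase that phosphorylates AKT in its activation loop (NCBI gene 5170, chromosome 16, 2538021 to 2603188, plus strand), had 55.2, 53.8 and 48.1 CPM in celastrol wells, against 40.2, 36.6 and 36.4 CPM in control wells. All celastrol wells lay above all control wells, with a clear gap. The means were 52.3 ± 3.77 CPM with celastrol and 37.7 ± 2.15 CPM in controls (SD, n = 3 each), a log2 fold change of 0.47 ± 0.09 (SE, edgeR adjusted p = 0.000179). The PDPK1 count is uncertain where reads can fall on other genes. AC141586.3 on the opposite strand covers 16.8% of its exon bases in GENCODE release 29. AC093525.7, also on the opposite strand, covers 6.85%, and bases covered by both were not separated. Of the PDPK1 transcript, AC141586.3 matches 25.4%, and the copy PDPK2P matches 15.2% at up to 99.91% identity. None of these 3 genes was analysed here.

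AKT1, the widely expressed AKT isoform and the most abundant of the 9 RNAs (NCBI gene 207, chromosome 14, 104769349 to 104795748, minus strand), had 312.6, 294.3 and 312.4 CPM in celastrol wells, against 280.1, 258.1 and 273.3 CPM in control wells. The lowest celastrol well was only slightly above the highest control well. The means were 306.4 ± 10.5 CPM with celastrol and 270.5 ± 11.3 CPM in controls (SD, n = 3 each), a log2 fold change of 0.18 ± 0.06 (SE, edgeR adjusted p = 0.0157). The rise of AKT1 did not pass when celastrol replicate 1 (adjusted p = 0.0871), celastrol replicate 3 (adjusted p = 0.0823) or control replicate 2 (adjusted p = 0.0851) was left out. AL583722.2 on the opposite strand covers 5.94% of the AKT1 exon bases and was not analysed here.

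AKT2, the isoform best known for insulin-driven glucose uptake (NCBI gene 208, chromosome 19, 40230317 to 40285345, minus strand), had 115.9, 104.9 and 108.6 CPM in celastrol wells, against 100, 89.2 and 79.1 CPM in control wells. Here too the groups did not overlap, and the control wells were the more spread. The means were 109.8 ± 5.58 CPM with celastrol and 89.4 ± 10.5 CPM in controls (SD, n = 3 each), a log2 fold change of 0.30 ± 0.08 (SE, edgeR adjusted p = 0.00532).

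Of 20 listed genes that act with or below AKT, all tested, 6 rose, 5 fell and 9 were not called. Among all genes tested 23.6% rose and 24.8% fell. All 20 had a log2 CPM of 4 or more, and of all genes so covered 30.2% rose and 26.8% fell. The median log2 fold change of the list was -0.03. AKT1S1, a subunit of mTOR complex 1 that AKT phosphorylates, averaged 97.6 ± 8.64 CPM with celastrol and 53.0 ± 6.22 CPM in controls (SD, n = 3 each, log2 fold change 0.88 ± 0.09 SE, edgeR adjusted p = 4.67e-07). GSK3A, a glycogen synthase kinase that AKT inhibits, had a log2 fold change of 0.36 ± 0.08 (SE, edgeR adjusted p = 0.000761), and 11.6% of its exon bases are shared with AC006486.1 on the same strand. CDKN1A, the cell cycle inhibitor p21, averaged 106.5 ± 4.52 CPM with celastrol and 181.2 ± 13.1 CPM in controls (SD, n = 3 each, log2 fold change -0.77 ± 0.07 SE, edgeR adjusted p = 9.08e-08).

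The brakes on the pathway are phosphatases, adaptors and pseudokinases that act against the receptors, PI3-kinase or AKT. Of 26 listed genes 24 were tested, of which 4 rose, 11 fell and 9 were not called. Among all genes tested 23.6% rose and 24.8% fell. The median log2 fold change of the list was -0.16. TRIB3, a pseudokinase that binds AKT, averaged 96.5 ± 18.5 CPM with celastrol and 49.8 ± 5.98 CPM in controls (SD, n = 3 each, log2 fold change 0.95 ± 0.14 SE, edgeR adjusted p = 0.00034). INPP4B, a lipid phosphatase, had a log2 fold change of 0.85 ± 0.16 (SE, edgeR adjusted p = 0.000365). GRB14, which binds and inhibits the insulin receptor, averaged 4.65 ± 0.428 CPM with celastrol and 10.5 ± 0.680 CPM in controls (SD, n = 3 each, log2 fold change -1.18 ± 0.15 SE, edgeR adjusted p = 6.73e-06). PPP2R5A, a regulatory subunit of protein phosphatase 2A, had a log2 fold change of -1.03 ± 0.13 (SE, edgeR adjusted p = 5.50e-06). GRB7 was below the filter, and INPP5D was not analysed here.

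**Figure D3:**
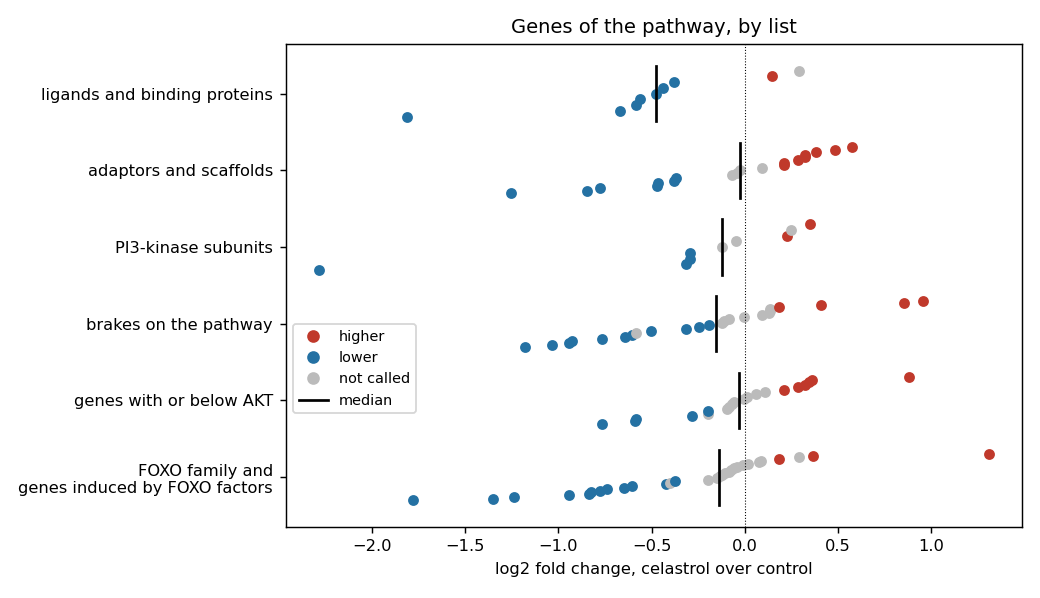
Log2 fold change, celastrol over control, of each tested gene of 6 lists of pathway genes (horizontal axis), coloured by the edgeR call, with a black bar at each list's median. The ligands and binding proteins lie mostly below 0, with a median of -0.48, while the adaptors and the AKT substrates lie on both sides.

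FOXO1, a transcription factor that insulin signalling keeps out of the nucleus (NCBI gene 2308, chromosome 13, 40555667 to 40666641, minus strand), had 13.9, 15.0 and 15.2 CPM in celastrol wells, against 20.7, 29.5 and 28.5 CPM in control wells. The celastrol wells lay close together, and control replicate 1 was again the control well nearest to them, as it was for IRS2. The means were 14.7 ± 0.676 CPM with celastrol and 26.2 ± 4.84 CPM in controls (SD, n = 3 each), a log2 fold change of -0.83 ± 0.13 (SE, edgeR adjusted p = 3.64e-05). Without control replicate 1 it was -0.98. FOXO1 was the least covered of the 9 genes, with 560 to 1121 counts per library. LINC00598, which shares 4.32% of its exon bases on the same strand, had 1 to 15 counts.

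FOXO3, a FOXO factor that AKT phosphorylates in the same way (NCBI gene 2309, chromosome 6, 108559825 to 108684774, plus strand), had 76.8, 66.2 and 69.3 CPM in celastrol wells, against 86.4, 92.8 and 93.7 CPM in control wells. The highest celastrol well lay below the lowest control well. The means were 70.8 ± 5.41 CPM with celastrol and 90.9 ± 4.0 CPM in controls (SD, n = 3 each), a log2 fold change of -0.36 ± 0.07 (SE, edgeR adjusted p = 0.000564).

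FOXO3B, a copy of FOXO3 elsewhere in the genome, went the other way. It had 14.2, 12.1 and 15.8 CPM in celastrol wells, against 8.13, 8.90 and 9.04 CPM in control wells, a log2 fold change of 0.69 ± 0.14 (SE, edgeR adjusted p = 0.000503). The copy matches 1927 of the 7341 bases of the FOXO3 transcript, or 26.2%, at up to 99.07% identity. AC026271.3, not analysed here, matches 24.9% at up to 98.14%. Reads from such matching bases could be counted for FOXO3 or FOXO3B, by rules that the sources used here do not give. With the counts of FOXO3 and FOXO3B added, the log2 fold change of FOXO3 was -0.23 (edgeR adjusted p = 0.0127), still lower with celastrol but 1.56 times smaller.

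Of the summed FPKM of FOXO1, FOXO3, FOXO4 and FOXO6, FOXO3 made up 53.2 ± 2.72% with celastrol and 49.4 ± 3.90% in controls, with overlap between the groups. FOXO1 made up 15.2 ± 1.03% with celastrol and 19.4 ± 1.55% in controls, without overlap (SD, n = 3 each). The other family members, FOXO4 and FOXO6, were chosen after their values were seen. FOXO4 made up 24.3 ± 0.889% with celastrol and 17.9 ± 1.57% in controls, without overlap. FOXO6 made up 7.34 ± 1.56% with celastrol and 13.3 ± 2.26% in controls, also without overlap (SD, n = 3 each). FOXO6 had a log2 fold change of -1.35 and fell (edgeR adjusted p = 0.000173, 66 to 241 counts per library), and FOXO4 was not called (log2 fold change -0.04 ± 0.16 SE, edgeR adjusted p = 0.844).

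Of 35 listed FOXO family genes and genes that FOXO factors are known to induce, 30 were tested. Of these 3 rose, 12 fell and 15 were not called. Among all genes tested 23.6% rose and 24.8% fell. The median log2 fold change of the list was -0.14. The list holds INSR and IRS2 themselves and shares CDKN1B, TRIB1, PIK3CA and IGFBP1 with the lists above. SESN2, a stress-induced sestrin, averaged 42.1 ± 5.38 CPM with celastrol and 17.0 ± 3.20 CPM in controls (SD, n = 3 each, log2 fold change 1.31 ± 0.13 SE, edgeR adjusted p = 7.66e-07), while the other sestrins SESN1 and SESN3, named after their values were seen, fell, with log2 fold changes of -0.37 and -0.84. CITED2, a transcriptional co-regulator, had a log2 fold change of 0.36 ± 0.11 (SE, edgeR adjusted p = 0.011), with overlapping wells, and was not called without celastrol replicate 1 (adjusted p = 0.101) or control replicate 2 (adjusted p = 0.0598). KLF15 and BCL6, both transcription factors, fell, with log2 fold changes of -1.78 and -1.24. TRIM63 and PCK1 were below the filter, and G6PC1, TNFSF10 and FASLG were not analysed here. Without the 9 genes, the 6 lists hold 105 distinct tested genes, of which 24 rose and 44 fell. That is 64.8% called, against 48.4% of all genes (23.6% higher and 24.8% lower). At a log2 CPM of 4 or more it was 66.7% of 84 list genes, 22 higher and 34 lower. Of all genes so covered 57.0% were called, 30.2% higher and 26.8% lower. The calls beyond these shares were among the falls, and the lists were chosen with earlier results known.

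Related genes were next compared within each well, as ratios of FPKM that do not move with library scaling. With 3 wells against 3 the exact permutation test cannot give a p under 0.1, and p-values were adjusted over the 4 pairs. FOXO3 over FOXO1 was 4.01, 3.21 and 3.32 in celastrol wells, against 3.04, 2.29 and 2.39 in control wells. The groups did not overlap, with geometric means of 3.50 with celastrol and 2.55 in controls and a two-sided exact permutation p of 0.1 (adjusted p = 0.4). The fall was thus larger for FOXO1 than for FOXO3 in these wells, without passing a test that could not pass at this size.

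For the other 3 pairs the groups overlapped. IGF1R over INSR had geometric means of 6.40 with celastrol and 6.75 in controls (two-sided exact permutation p = 0.4, adjusted p = 0.533). IRS2 over IRS1 had geometric means of 1.005 with celastrol and 0.949 in controls (two-sided exact permutation p = 0.8), and the direction turned without control replicate 1. AKT2 over AKT1 had geometric means of 0.143 with celastrol and 0.132 in controls (two-sided exact permutation p = 0.3, adjusted p = 0.533). With a smallest p of 0.1, this test could not have established a difference between paired genes in their change for any of the 4 pairs.

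**Figure D4:**
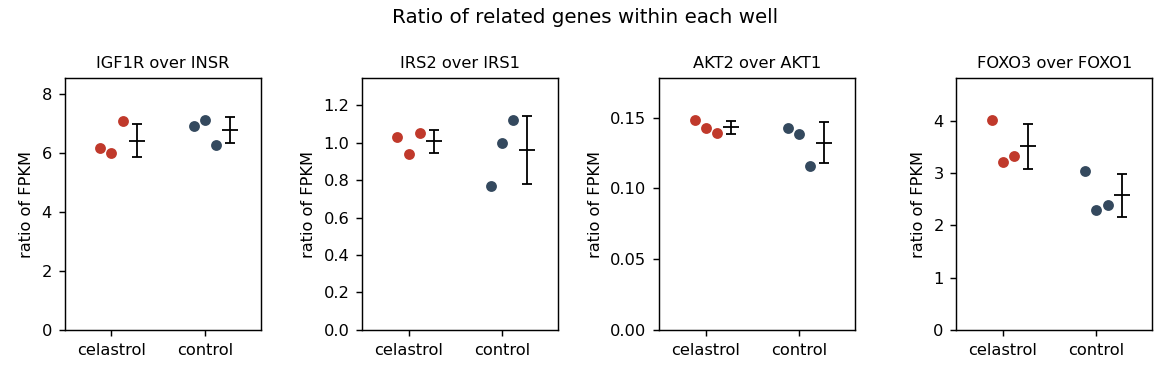
Ratio of the FPKM of related genes within each well (vertical axes, each starting at 0), 1 point per well, celastrol left of control, with mean and SD beside the points. The wells of the groups overlap for IGF1R over INSR, IRS2 over IRS1 and AKT2 over AKT1, and do not overlap for FOXO3 over FOXO1.

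The FPKM of both genes of each pair were also summed. These sums leave out other family members, such as FOXO4 and FOXO6. IRS1 and IRS2 together had 8.51 ± 0.422 FPKM with celastrol and 14.5 ± 1.15 FPKM in controls. FOXO1 and FOXO3 together had 6.32 ± 0.332 FPKM with celastrol and 8.57 ± 0.683 FPKM in controls. The receptors together had 19.6 ± 0.732 FPKM with celastrol and 22.1 ± 0.168 FPKM in controls, most of it IGF1R. AKT1 and AKT2 together had 104.6 ± 3.61 FPKM with celastrol and 88.8 ± 4.02 FPKM in controls (SD, n = 3 each), most of it AKT1. In all 4 sums the groups did not overlap, at the smallest exact permutation p that the design allows, 0.1. Of all single genes tested, 56.9% did not overlap either.

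Per length of gene, the order of levels in celastrol wells was AKT1 with a mean of 91.5 FPKM, IGF1R with 16.9, AKT2 with 13.1, FOXO3 with 4.92, PDPK1 with 4.34, IRS2 with 4.27, IRS1 with 4.24, INSR with 2.65 and FOXO1 with 1.40 FPKM. In control wells it was AKT1 with a mean of 78.5 FPKM, IGF1R with 19.3, AKT2 with 10.4, IRS1 with 7.42, IRS2 with 7.11, FOXO3 with 6.14, PDPK1 with 3.04, INSR with 2.86 and FOXO1 with 2.43 FPKM. The top 3 places were the same in both groups, and IRS1 and IRS2 stood above FOXO3 and PDPK1 in the control order and below them in the celastrol order. Neighbours whose wells overlapped were PDPK1 with IRS2 and IRS2 with IRS1 in celastrol wells. In control wells they were IRS1 with IRS2, IRS2 with FOXO3, PDPK1 with INSR and INSR with FOXO1.

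**Figure D5:**
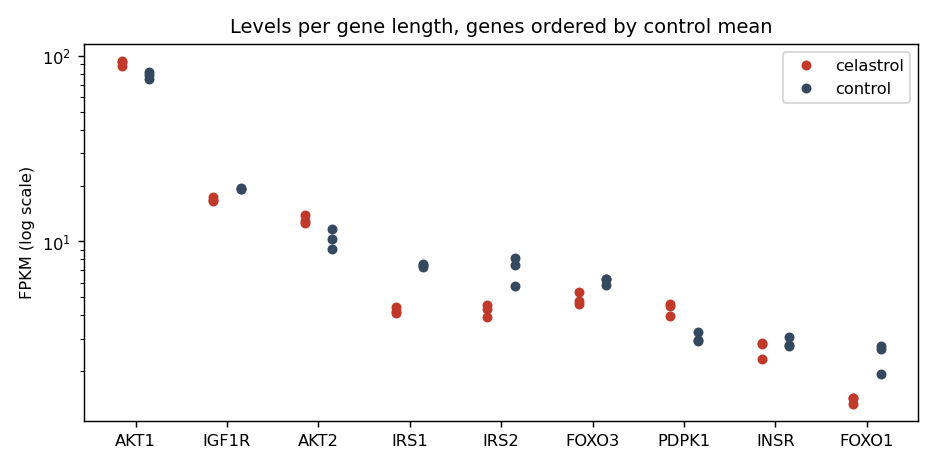
Level of each of the 9 genes in FPKM on a log axis, celastrol and control wells as points. AKT1 stands highest in both groups, and the places of IRS1, IRS2, FOXO3 and PDPK1 change between the groups.

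By smallest root mean square difference of the centred log2 CPM profile over the 6 libraries, among 8697 genes at a log2 CPM of 4 or more, the genes nearest to PDPK1 were USP1 (0.0130), PPIP5K2 (0.0255) and GXYLT1 (0.0279). USP1, a deubiquitinase, averaged 114.6 CPM with celastrol and 83.4 CPM in controls. Those nearest to IRS1 were ARID3B (0.0456), MAP1S (0.0466) and QPCTL (0.0475), and ARID3B, a DNA-binding protein, averaged 45.6 CPM with celastrol and 78.7 CPM in controls. The 6 libraries form 2 groups, so a profile here holds little beyond a difference between groups. In the pathway terms of the deposited annotation all 9 genes carried AMPK signaling (113 genes of the table) and FoxO signaling (121 genes), 7 carried insulin signaling (125 genes) and PI3K-Akt signaling (304 genes), and 6 carried mTOR signaling (148 genes).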

How the data were processed

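Libraries of poly(A) RNA were made by a dUTP method that marks strand and read in pairs, per the labels' protocols. Build hg38 and the tools StringTie 2.1.6, HISAT2 2.2.1, cutadapt 1.9, edgeR and DESeq2 are named, without their roles, per the submitters' processing notes. The sources used here do not give the annotation or the use of strand in counting. The authors deposited whole-number read counts per gene and FPKM. The deposited FPKM are the counts scaled by length and library total, since the length they imply was constant over libraries (within 1e-06) in 20198 of 20198 genes.

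Genes were filtered with filterByExpr, scaled by TMM and tested with edgeR 4.0.16 (quasi-likelihood, robust, R 4.3.3), with Benjamini-Hochberg adjustment over 15387 genes and calls at an adjusted p under 0.05. Standard errors are the log2 fold change over the square root of F. CPM levels in the report are TMM-scaled, and FPKM was used to compare genes and for exact permutation tests of ratios (SciPy 1.17.1). A count of 0 allows 3 counts, or 0.076 to 0.0781 CPM, and covers counting error only. The alternatives were 2 tools (DESeq2 1.42.0 and limma 3.58.1), scalings, filters, a replicate block, a fold threshold and left-out wells, plus FOXO3B counts added to FOXO3, chosen after seeing the data. RefSeq (GRCh38.p14) was matched by NCBI gene ID for 21761 of 22481 genes and gave the coordinates of the 9 genes. It also gave their promoters, taken by gene symbol. Exon overlaps are from GENCODE release 29, and copies were found with BLAST 2.17.0.

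The genes and lists were chosen with earlier results of these data known. Named are all 9 genes, the 2 called genes with the largest change in each direction of each list at a log2 CPM of 2 or more, and the 3 genes with profiles nearest to the member that rose most and the member that fell most. A gene that this rule takes is not reported here. Other genes are marked in the text as chosen after their values were seen or stand as members of a count. Lists were described by counts and medians, with no set test.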

Additional observations from a re-analysis of the deposited data

How the results depend on the processing

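All 9 genes kept their direction under every alternative run, and IRS1, IRS2 and FOXO1 kept their calls in all of them. With glmTreat beyond a 25% rise or the same fold down, 1496 genes of the table were higher and 1866 lower, with 0 of the 9 genes higher (1 at an unadjusted p under 0.05) and 3 lower. Without each well in turn, all genes gave 2932 to 4043 higher and 3145 to 4067 lower calls, and the 9 genes 2 to 3 higher and 5 lower. Of the ligands and binding proteins, 0 were higher with no filter (IGF2R adjusted p = 0.0664) and with at least 10 CPM in 3 libraries (0.062), and 0 to 1 with 1 well left out. Of the PI3-kinase subunits 1 was higher without celastrol replicate 2 and control replicate 1 together, and 1 to 2 with 1 well left out. Of the FOXO family and target genes 1 to 4 were higher with 1 well left out. IRS2 over IRS1 had a log2 difference of 0.08, which turned to -0.07087 without control replicate 1, the lowest of a range of -0.07 to 0.20 over the left-out wells. The summed receptors had a log2 fold change of -0.18, and -0.22 in TMM-scaled CPM, which changes the weighting by gene length and the library scaling together, and the cause was not tested. Scaling by library size alone gave 4170 higher and 3382 lower calls and moved the median of all genes by 0.041.

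The labels number the wells 1 to 3 in both groups. Wells of 1 number deviated together only weakly (correlations of 0.0582, 0.0549 and 0.0341), so the numbers were not taken as pairs, although every well correlated best with its own number. With the replicate block, 3831 genes were higher and 3928 lower, and the 9 genes kept 3 higher and 5 lower calls. Wells of 1 plate, an unstated dose and 1 time limit these results, and the call of AKT1 depended on single wells.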
